A study of Rattus norvegicus with 47 samples.

Results

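The genes described here encode the proteins of the mitochondrial ribosome and were taken from the rat kidney count table by symbol, as every gene whose name is Mrpl or Mrps followed by a number. There were 76 such genes among 22525, grouped by name alone as large subunit (46, Mrpl) or small subunit (30, Mrps) genes. Of these, 75 passed the filter on low counts, among 15868 genes tested. The 1 gene that did not pass was Mrps21l, with at most 12 counts in a library and counts in 23 libraries. The symbol Mrps36 matched the rule, but RefSeq lists it as a synonym of Kgd4, a subunit of the 2-oxoglutarate dehydrogenase complex. Mrps36 was kept among the 75 genes in all counts and medians. The subunit genes mrpl9, mrpl11 and mrpl24, spelled in lower case in the table, fell outside the rule and are given apart.

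Kidneys of 47 rats were sequenced as bulk tissue 12 months after surgery to implant cylindrical pellets, 1 mm wide and 2 mm long, of a single metal per animal. The inert metal tantalum (Ta) served as the reference. The other pellets were of lead (Pb), cobalt (Co), aluminum (Al), tungsten (W) or depleted uranium (DU). There were 8 libraries for each metal except Pb, which had 7. Control rats thus also carried a pellet and had undergone surgery, and no group without a pellet was analysed here. Strain, sex and age are not given in the sources used here, and the labels number the replicates without saying that numbers are shared between groups. Total counts per library ran from 21604755 to 35775818, with a median of 26363810, and the 76 genes together took 0.319% to 0.544% of them.

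Mitochondria carry their own small genome, which encodes core subunits of the respiratory chain, and translate it on their own ribosomes. The RNA of these ribosomes is encoded in the mitochondrial genome, whereas all of their proteins are encoded in the nucleus, made in the cytosol and imported. Proximal tubule cells of the kidney are rich in mitochondria, because reabsorption of salt, glucose and phosphate depends on oxidative phosphorylation.

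The mitochondrial ribosomal protein genes were higher in kidneys with Pb pellets than in those with Ta pellets almost throughout the family. Of the 75 genes, 70 rose and 1 fell (adjusted p under a threshold of 0.05, edgeR's quasi-likelihood test with Benjamini-Hochberg adjustment over all genes tested). Across all genes tested, 24.5% were called higher and 29.2% lower in this comparison. The median log2 fold change of the 75 genes was 0.81, beside -0.07 for all genes. Split by name, the genes moved alike, with medians of 0.80 for the 46 Mrpl genes and 0.81 for the 29 Mrps genes tested. Whether a different mix of cell types or a different amount of RNA per cell lies behind a difference in bulk tissue cannot be told apart.

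Cobalt and aluminum gave smaller rises in most of the family. With Co, 66 of the 75 genes rose and 0 fell, with a median log2 fold change of 0.46, where 13.6% of all genes were called higher and 12.2% lower. With Al, 63 rose and 0 fell, with a median of 0.43, where 12.8% of all genes were called higher and 12.4% lower. With DU, 27 rose and 0 fell, with a median of 0.21, and 7.89% of all genes were called higher and 7.39% lower.

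Tungsten gave the fewest calls, and these depended on single libraries. With W, 11 of the 75 genes rose and 0 fell, with a median log2 fold change of 0.28, where 1.42% of all genes were called higher and 0.366% lower. The estimate was above 0 for 73 of the 75 genes, and 58 had an unadjusted p below 0.05. Leaving out 1 library moved the count to 0 without W replicate 5, to 1 without W replicate 8, to 2 without W replicate 6 or W replicate 7, and to 6 without W replicate 1 or Ta replicate 6. It rose to 18 when W replicate 2 was left out and to 23 when W replicate 3 was. Leaving out Ta replicate 5 gave 22, and leaving out Ta replicate 8 gave 25. Without W replicate 5 this ended the calls of Mrpl52, Mrps21, Mrpl44, Mrpl20, Mrps18c and Mrpl37, the 6 genes with the smallest p for W. The other 4 named genes called with W, which were Mrps23, Mrps24, Mrpl13 and Mrpl28, also lost their calls without this library. The count was 24 with DESeq2 and 5 with no filter on low counts. W replicates 5 to 8 stood apart from W replicates 1 to 4. Their summed CPM of 6 endothelial markers was 52.6 to 88.4, beside 184 to 252 in W replicates 1 to 4 and 166 to 229 with Ta. Their summed CPM of 10 proximal tubule markers was 4075 to 6336, beside 8532 to 10526 in W replicates 1 to 4 and 6218 to 8504 with Ta. On this measure all of W replicates 1 to 4 lay above every Ta library. The mean log2 CPM of the 75 genes was 5.51 to 5.74 in W replicates 5 to 8 and 5.32 to 5.45 in the others. Co divided by number too, with endothelial sums of 58.1 to 88.7 in replicates 5 to 8 and 91.7 to 253 in replicates 1 to 4. The means of the 75 genes were 5.67 to 5.91 and 5.43 to 5.54 in these Co libraries. The proximal tubule sums of Co overlapped, at 4433 to 6412 in replicates 5 to 8 and 6020 to 10036 in replicates 1 to 4. Al replicates 5 to 8 and 1 to 4 overlapped in endothelial sums, at 35.2 to 68.1 and 66.2 to 177. Proximal tubule sums of these Al libraries did not overlap, at 3295 to 5019 and 5480 to 6398. The means of the 75 genes were 5.57 to 5.83 and 5.41 to 5.73 in these Al libraries. Without W replicates 5 to 8, a choice made after seeing the data, edgeR called 0 of the 75 genes and 0 of all genes, and 15 of the 75 had an unadjusted p below 0.05. The part of these markers in the W, Co and Al results was not tested.

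**Figure D1:**
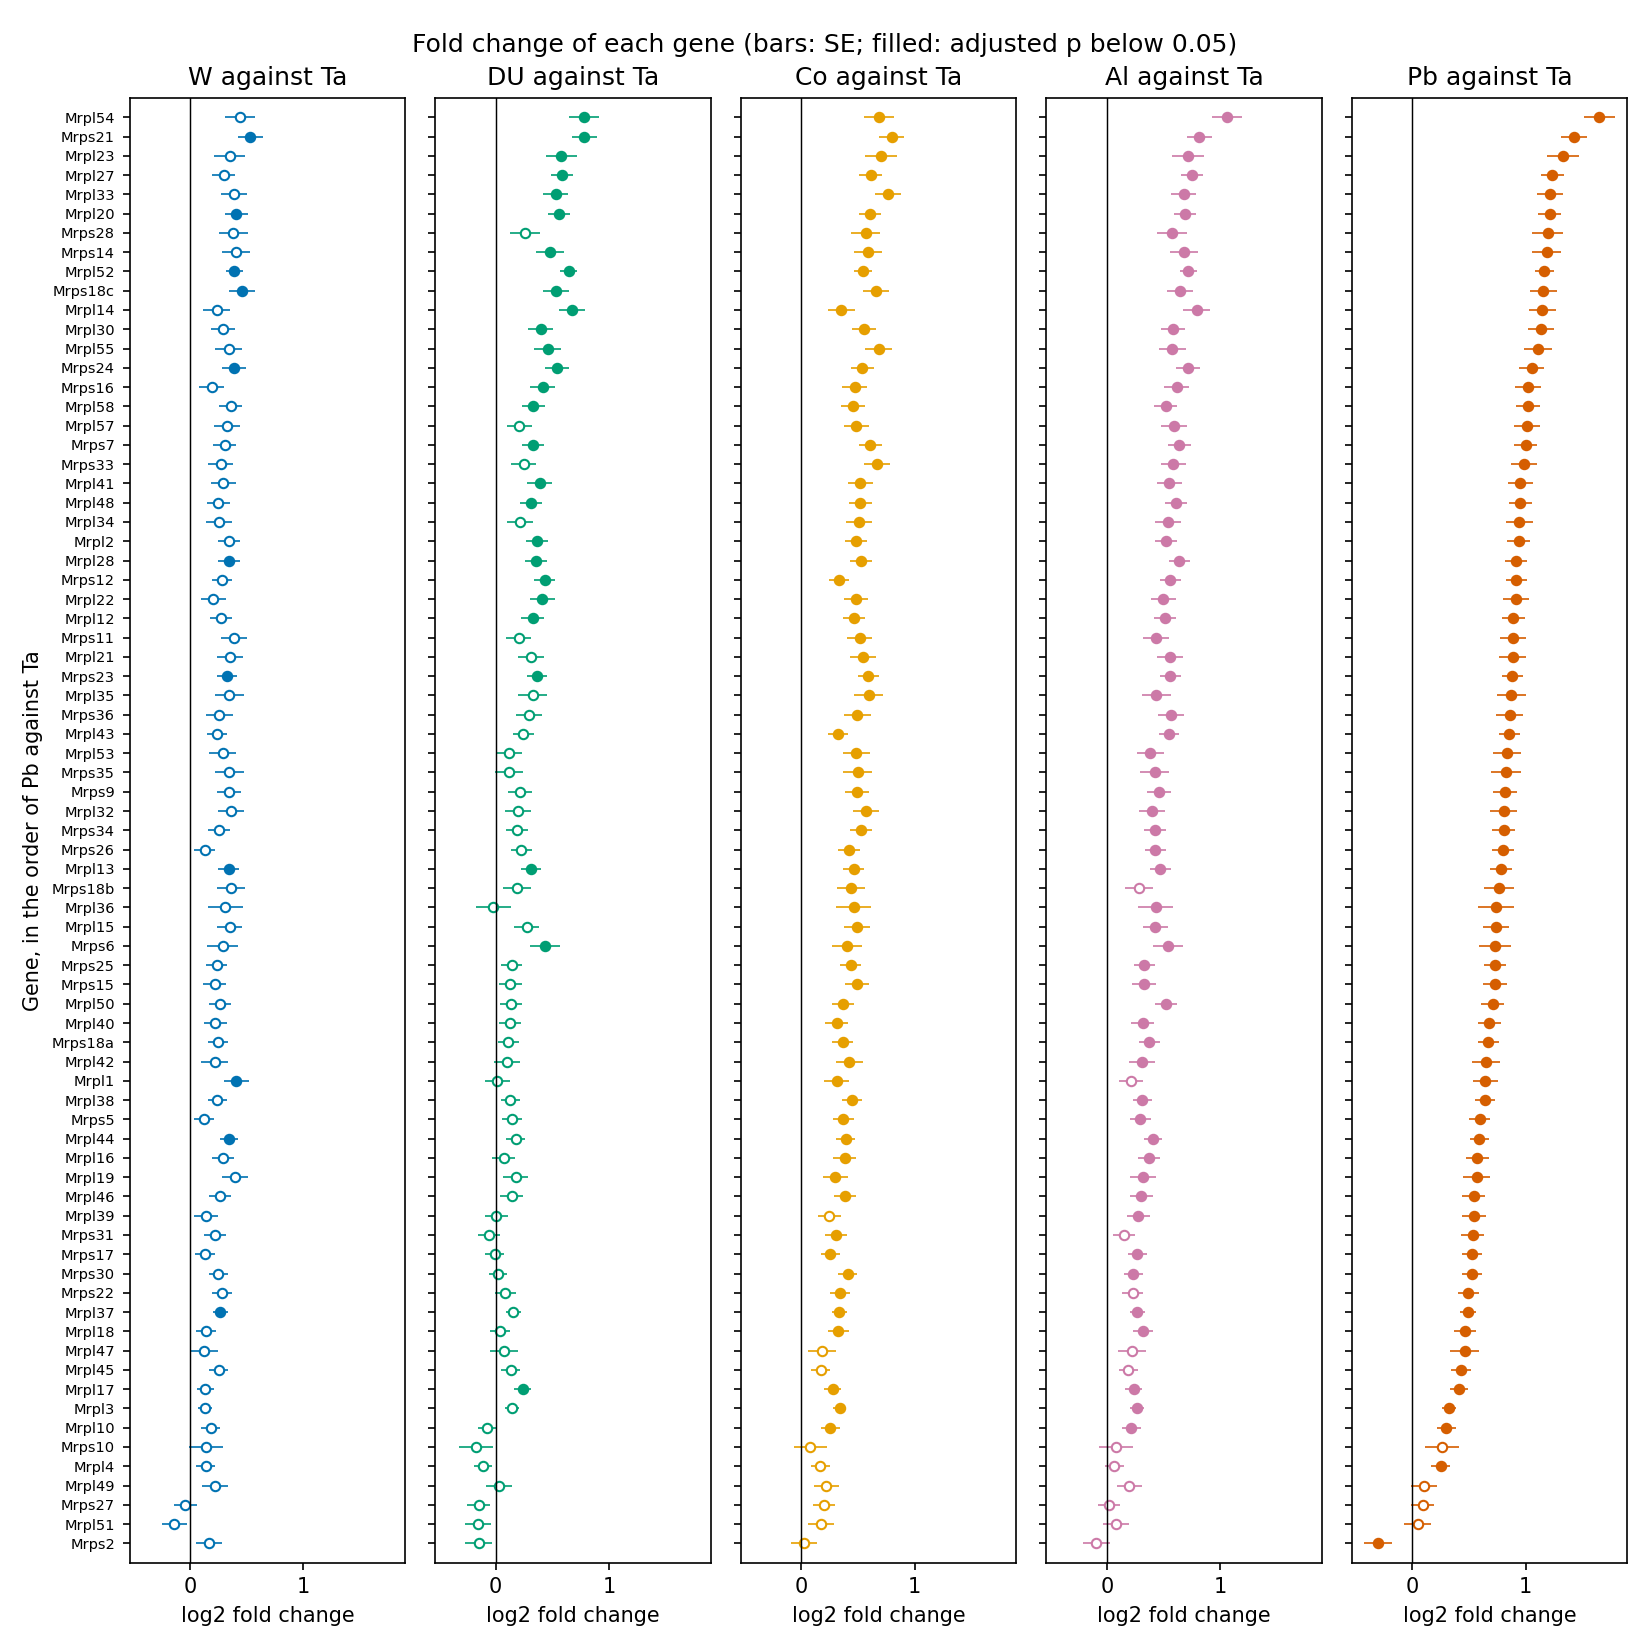
Log2 fold change against Ta of each of the 75 genes (rows, in the order of the Pb comparison) for 5 metals (panels), with bars of 1 SE and filled points where the adjusted p was below 0.05. Filled points number 11 for W, 27 for DU, 66 for Co, 63 for Al and 71 for Pb, and the only filled point left of 0 is Mrps2 with Pb.

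Pb was also compared with each other metal, which leaves out the Ta reference. Against W, 64 of the 75 genes were higher and 1 lower with Pb (all genes: 17.5% higher, 21.5% lower), with a median log2 difference of 0.49. Against Co, 45 were higher and 1 lower (all genes: 11.3% higher, 14.5% lower), with a median of 0.32. Against Al, 54 were higher and 0 lower (all genes: 7.98% higher, 11.1% lower), with a median of 0.36, and the count was 35 without Pb replicate 4. Against DU, 70 were higher and 0 lower (all genes: 23.7% higher, 25.9% lower), with a median of 0.56. In a joint test of any difference among W, Co, Al, Pb and DU, 71 of the 75 genes were called (94.7%), beside 53.2% of all genes. With the balance of small against very large protein genes, described further on, as a covariate, these counts fell to 5 against W, 2 against Co, 0 against Al, 38 against DU and 34 in the joint test. Against Al 21 genes then had an unadjusted p below 0.05, and 0 of all genes were called. The 4 genes not called in the joint test without the covariate were Mrpl49, Mrpl47, Mrps10 and Mrps6, named after their values were seen.

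The level of the family in each library was summarised as the mean log2 CPM (CPM: a gene's share of the TMM-scaled library total, in the usual unit) of the 75 genes. It was 5.22 ± 0.12 with Ta (SD, n = 8) and ranged from 5.04 to 5.35. It was 5.99 ± 0.13 with Pb (SD, n = 7), from 5.86 to 6.27, so that all 7 Pb libraries lay above every Ta library. Co libraries ran from 5.43 to 5.91 and Al libraries from 5.41 to 5.83, and again every library of both groups lay above every Ta library. W libraries ran from 5.32 to 5.74 and DU libraries from 5.21 to 5.62, with 6 of 8 in each group above every Ta library. The ranges of W, Co, Al and DU overlapped one another.

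**Figure D2:**
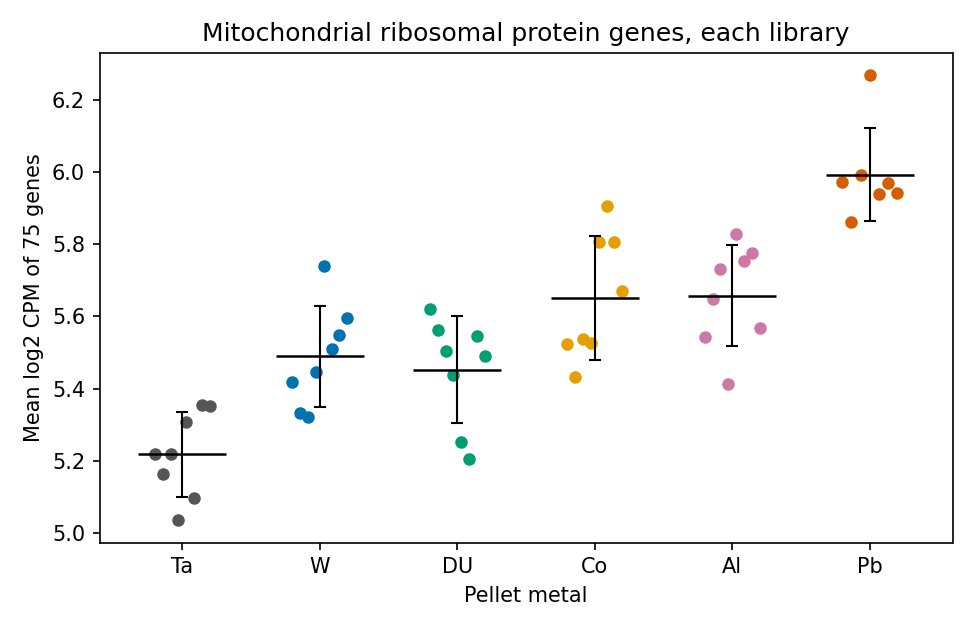
Mean log2 CPM of the 75 genes in each library (points) by pellet metal, with the group mean (line) and SD (bar). All 7 Pb libraries and all 8 Co and 8 Al libraries sit above the highest Ta library at 5.35, and 6 of 8 W and 6 of 8 DU libraries do.

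Counted gene by gene, 59 of the 75 genes had every Pb library above every Ta library, beside 12.99% of all genes tested. The same held for 22 genes with Co (2.07% of all genes), 27 with Al (3.49%), 6 with DU (2.02%) and 2 with W (0.366%). None of the 75 genes had every library of a metal below every Ta library, beside 0.170% of all genes with W, 0.567% with Co, 1.40% with Al, 13.9% with Pb and 0.700% with DU. Over the 5 comparisons with Ta, which share the Ta libraries, 8 genes were called higher in all 5, 21 in 4, 34 in 3, 4 in 2 and 3 in 1. Another 4 genes were called in none, and Mrps2 was called once, lower. Among all genes tested, 0.971% were called higher in all 5 with none lower, 4.22% in 4, 5.68% in 3, 5.77% in 2 and 9.36% in 1, while 40.6% were called in none and 15.7% once, lower. The 8 genes called in all 5 rest on the calls with W, of which 0 were left without W replicate 5.

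Mrpl52, a protein of the large subunit, had the smallest p in 4 of the 5 comparisons with Ta. Its CPM had a lowest, median and highest value of 50.2, 54.6 and 56.5 with Ta, and of 108, 114 and 157 with Pb. The values were 62.1, 69.6 and 81.9 with W, 63.6, 81.8 and 88.1 with Co, 76.1, 87.8 and 112 with Al, and 77.04, 82.95 and 96.9 with DU. Every library of each of the 5 metals lay above every Ta library, and the Pb libraries lay above all W, Co and DU libraries but not above all Al libraries. The log2 fold change was 1.17 ± 0.08 with Pb (SE, adjusted p = 2.34e-15), a 2.24-fold rise. It was 0.72 ± 0.08 with Al (SE, adjusted p = 4.00e-09), 0.64 ± 0.08 with DU (SE, adjusted p = 9.26e-08), 0.54 ± 0.08 with Co (SE, adjusted p = 7.69e-06) and 0.39 ± 0.08 with W (SE, adjusted p = 0.0198). The W call was lost without W replicate 5 (adjusted p = 0.0620).

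Mrps21, a protein of the small subunit, was also called in all 5 comparisons. RefSeq lists a named copy or pseudogene of Mrps21, as it does for Mrpl54, Mrpl23, Mrpl37, Mrpl47, Mrps10, Mrps16, Mrps18b and Mrps18c. Values of these genes are therefore less certain. The CPM of Mrps21 was 27.5, 31.0 and 40.8 (lowest, median, highest) with Ta and 75.7, 83.7 and 114 with Pb. It was 39.4, 46.6 and 51.7 with W, 42.2, 55.1 and 72.8 with Co, 45.7, 57.4 and 67.1 with Al, and 34.3, 57.6 and 63.6 with DU. All Pb libraries lay above every library of the other 5 metals, while 1 W and 1 DU library lay within the Ta range. The log2 fold change was 1.43 ± 0.12 with Pb (SE, adjusted p = 1.71e-13), and Pb was also higher than Al by 0.61 ± 0.11 (SE, adjusted p = 7.06e-04).

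Mrpl54, of the large subunit, had the largest fold change of the family. Its CPM was 51.5, 62.8 and 84.3 (lowest, median, highest) with Ta, 92.1, 133.9 and 183 with Al, and 177, 207 and 232 with Pb. With W the values were 64.2, 80.3 and 125.9, with Co 84.8, 107 and 122.3, and with DU 92.6, 111 and 135.5. The Co, Al, DU and Pb libraries all lay above the Ta range, and 4 of 8 W libraries did. The log2 fold change was 1.65 ± 0.14 with Pb (SE, adjusted p = 3.18e-13), or 3.14-fold, and 1.06 ± 0.13 with Al (SE, adjusted p = 7.21e-08). With W it was 0.44 ± 0.13 (SE) and was not called (adjusted p = 0.0581).

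**Figure D3:**
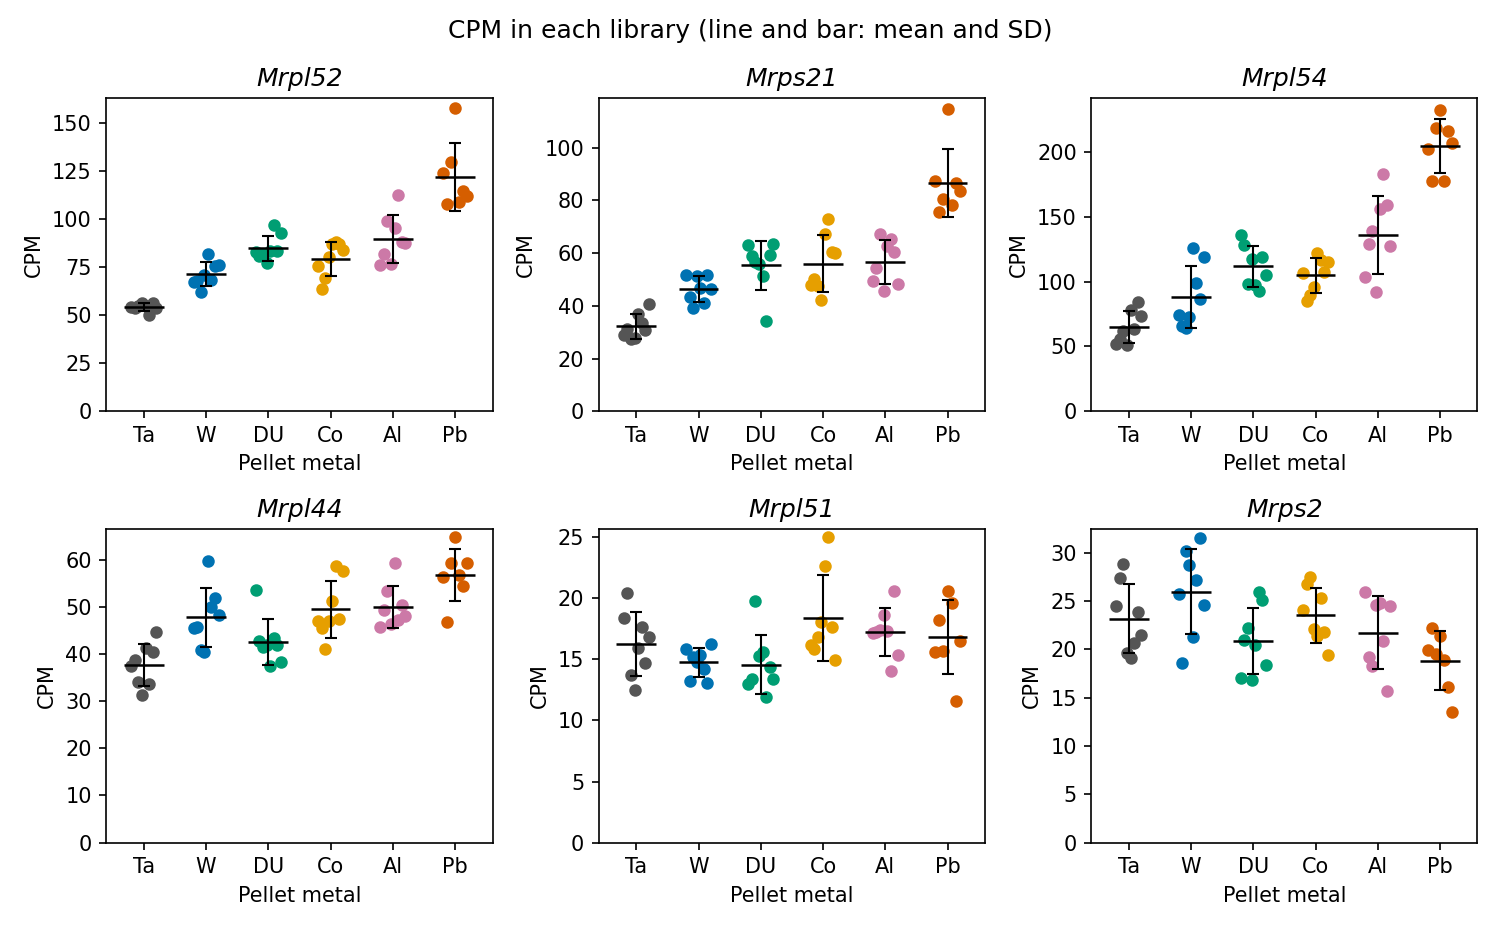
CPM in each library (points) by pellet metal for 6 genes, with the group mean (line) and SD (bar), each panel starting at 0. For Mrpl52, Mrps21 and Mrpl54 all Pb libraries lie above all Ta libraries, Mrpl44 shows a smaller step, Mrpl51 groups overlap throughout, and 3 of 7 Pb libraries of Mrps2 lie below every Ta library.

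Promoters of these genes are shown because the members moved together. RefSeq on build GRCr8, a later build than the mRatBN7.2 genome used for the counts, gave windows for 60 of the 76 genes (62 windows of 300 bases, from 250 before to 50 after the start). Each line below gives the 150 bases before the start, 5′ to 3′ on the gene's strand, with the letters CGGAAG or their complement CTTCCG in capitals, the core bound by ETS factors such as GABP. Mrpl52 lies at chr15:31852786-31852935 on the plus strand, Mrpl27 at chr10:80092195-80092344 on the plus strand, Mrps21 at chr2:186103352-186103501 on the minus strand, Mrpl54 at chr7:9103375-9103524 on the plus strand and Mrps2 at chr3:32200927-32201076 on the plus strand.
Mrpl52: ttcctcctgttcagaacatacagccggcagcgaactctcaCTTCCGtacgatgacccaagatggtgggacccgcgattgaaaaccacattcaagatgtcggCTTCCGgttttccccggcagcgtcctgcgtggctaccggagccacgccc
Mrpl27: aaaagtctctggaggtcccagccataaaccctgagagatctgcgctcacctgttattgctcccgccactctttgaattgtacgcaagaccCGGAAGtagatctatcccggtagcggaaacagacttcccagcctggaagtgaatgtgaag
Mrps21: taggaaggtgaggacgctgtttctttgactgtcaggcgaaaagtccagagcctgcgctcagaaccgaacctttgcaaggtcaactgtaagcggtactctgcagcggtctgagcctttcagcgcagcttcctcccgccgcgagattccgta
Mrpl54: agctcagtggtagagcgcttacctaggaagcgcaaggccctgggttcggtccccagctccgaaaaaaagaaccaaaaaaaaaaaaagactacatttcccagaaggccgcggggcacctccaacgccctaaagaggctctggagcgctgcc
Mrps2: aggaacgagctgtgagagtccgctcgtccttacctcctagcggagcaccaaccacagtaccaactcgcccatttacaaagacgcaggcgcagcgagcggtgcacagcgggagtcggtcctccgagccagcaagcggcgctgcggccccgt
The stretch of Mrpl52 held the letters at 2 places and that of Mrpl27 at 1. Mrpl54 held them elsewhere in its 300 bases. Mrps21 has 2 windows of 300 bases, of which at least 1 held them outside the stretch shown. Mrps2, the gene that fell with Pb, did not hold them in its 300 bases.

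Over the 300 bases, searched on both strands, CGGAAG was found in 51.6% of the members' windows, 16.6% of all 33469 windows and 19.8% of those of protein-coding genes. The longer CCGGAAGT, which contains it, was found in 12.9%, 3.81% and 4.77%. TGCGCA, part of the NRF1 element, was found in 25.8%, 7.24% and 8.74%, and the longer GCGCATGCG in 8.06%, 1.52% and 1.93%. AAGATGGC, the YY1 element, was found in 24.2%, 3.17% and 3.67%, but in 4.84%, 1.63% and 1.64% of the 250 bases before the start. The median log2 fold change with Pb was 0.82 for the 32 genes with CGGAAG and 0.73 for the 28 without, and 0.67 for the 15 with AAGATGGC and 0.89 for the 45 without. These are matches of letters and were not tested as binding sites.

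Among other large subunit genes, Mrpl27 and Mrpl20 showed rises close in size to that of Mrpl52. Mrpl27, next to the peptidyl transferase centre in bacterial ribosomes, had 37.1, 47.5 and 55.2 CPM (lowest, median, highest) with Ta and 93.3, 112 and 128.7 with Pb, with no overlap. Its log2 fold change was 1.23 ± 0.10 with Pb, 0.75 ± 0.10 with Al, 0.61 ± 0.10 with Co and 0.58 ± 0.10 with DU (SE), all called, and 0.30 ± 0.10 with W, not called. Mrpl20 rose in all 5 comparisons, by 1.21 ± 0.10 with Pb, 0.69 ± 0.10 with Al, 0.61 ± 0.10 with Co, 0.56 ± 0.10 with DU and 0.41 ± 0.10 with W (log2, SE). Its Pb libraries, at 81.4 to 123.4 CPM, lay above those of every other metal, the highest of which reached 75.9 CPM with Co.

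Mrpl33 was among the genes with the smallest p with Co, at 0.76 ± 0.11 (log2, SE), and all 8 Co libraries lay above every Ta library. With W all 8 of its libraries lay above every Ta library (38.7 to 47.7 against 27.9 to 38.1 CPM), but the change of 0.39 ± 0.11 was not called (adjusted p = 0.0549). Mrpl14 rose more with Al (0.79 ± 0.12) and DU (0.67 ± 0.12) than with Co (0.35 ± 0.12; log2, SE), values whose differences were not tested. Its call with Co was lost without Co replicate 8 (adjusted p = 0.0725). Mrpl23 rose by 1.33 ± 0.14 with Pb (log2, SE) and was named after its values were seen.

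Mrpl44, an RNase III-like protein of the large subunit, and Mrpl37 were called with W, Co, Al and Pb but not with DU. Mrpl44 ran from 31.4 to 44.7 CPM with Ta, 40.6 to 59.7 with W and 37.6 to 53.7 with DU. Its log2 fold change was 0.34 ± 0.08 with W and 0.18 ± 0.08 with DU (SE, adjusted p = 0.0332 and 0.149). Mrpl37 changed by 0.26 ± 0.07 with W and 0.49 ± 0.07 with Pb (log2, SE). Mrpl13 and Mrpl28 were called in all 5 comparisons, at 0.78 ± 0.10 and 0.92 ± 0.10 with Pb (log2, SE). Mrpl12, the stalk protein that also binds the mitochondrial RNA polymerase, rose by 0.89 ± 0.10 with Pb, with 186 to 240 CPM against 87.8 to 141.6 with Ta. Mrpl58, a peptidyl-tRNA hydrolase that rescues stalled ribosomes, rose by 1.02 ± 0.11 with Pb. Mrpl3, a core protein of the large subunit, rose by 0.34 ± 0.06 with Co and 0.33 ± 0.06 with Pb, and Pb differed from Co by -0.01 ± 0.06 (log2, SE).

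Named genes of the small subunit rose with Pb as well, apart from Mrps2 and the genes called in no comparison with Ta. Mrps18c, 1 of 3 mammalian relatives of bacterial S18, was called in all 5 comparisons, at 1.16 ± 0.12 with Pb and 0.46 ± 0.12 with W (log2, SE). Mrps23 and Mrps24 were also called in all 5, at 0.88 ± 0.09 and 1.05 ± 0.11 with Pb. Mrps12, a protein of the decoding centre, rose by 0.92 ± 0.09 with Pb, with 52.7 to 79.5 CPM against 29.1 to 42.9 with Ta. Mrps7 rose by 1.00 ± 0.10, Mrps16 by 1.02 ± 0.12, Mrps34 by 0.81 ± 0.10 and Mrps18b by 0.76 ± 0.13 with Pb, and all Pb libraries of these 4 genes lay above every Ta library. Mrps22 rose by 0.49 ± 0.09, with 6 of 7 Pb libraries above every Ta library. Human variants in Mrps7, Mrps16, Mrps22, Mrps34, Mrpl3, Mrpl12 and Mrpl44 are known from mitochondrial disease.

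Mrps2, a protein of the small subunit, was the 1 gene that fell. Its CPM was 19.1, 22.7 and 28.9 (lowest, median, highest) with Ta and 13.5, 19.5 and 22.2 with Pb, so that the ranges overlapped and 3 of 7 Pb libraries lay below every Ta library. The log2 fold change was -0.30 ± 0.12 (SE, adjusted p = 0.0334). The call was lost with DESeq2, with RLE factors, in a fit of Pb and Ta alone and with either kind of covariate. It was also lost without Ta replicate 1, 2 or 3 or Pb replicate 6 or 7, with a highest adjusted p of 0.112 without Ta replicate 3. Mrps2 was also lower with Pb than with W (-0.47 ± 0.12; SE, adjusted p = 0.00195).

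The genes called in no comparison with Ta were Mrpl51, Mrpl49, Mrps27 and Mrps10. Mrpl51 had 12.5, 16.4 and 20.5 CPM with Ta and 11.6, 16.5 and 20.6 with Pb (lowest, median, highest), with a log2 fold change of 0.05 ± 0.12 (SE, adjusted p = 0.758). The Ta and Pb ranges nearly coincided. The change with Pb was 0.10 ± 0.12 for Mrpl49, 0.09 ± 0.10 for Mrps27, a pentatricopeptide repeat protein, and 0.26 ± 0.15 for Mrps10 (log2, SE). Against DU, Pb was higher for Mrps27 (0.24 ± 0.10, adjusted p = 0.0430) and Mrps10 (0.43 ± 0.15, adjusted p = 0.0159).

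Subunit genes outside the rule were mostly higher with Pb as well. Of all genes tested, 24.5% were called higher with Pb, 13.6% with Co, 12.8% with Al, 7.89% with DU and 1.42% with W. Of mrpl9, mrpl11 and mrpl24, all 3 rose with Co, Al and Pb and 1 (mrpl11) with W and with DU, and with Pb mrpl11 rose by 0.95 ± 0.09, mrpl24 by 0.72 ± 0.08 and mrpl9 by 0.44 ± 0.07 (log2, SE). Of 5 subunit genes with other names, 4 rose with Pb: Chchd1 by 1.17 ± 0.11, Gadd45gip1 by 0.97 ± 0.12, Aurkaip1 by 0.85 ± 0.11 and Dap3, a GTP-binding small subunit protein, by 0.40 ± 0.10. The fifth, Ptcd3, changed by -0.15 ± 0.11 and was not called.

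Other genes of mitochondrial protein synthesis moved less uniformly. Their counts with Pb stand beside 24.5% of all genes called higher and 29.2% called lower. With Pb, 18 of 26 ribosome assembly genes rose and 2 fell (median log2 fold change 0.43), and 9 of 13 translation factor genes rose and 1 fell (median 0.42). Among them Mpv17l2, a factor of large subunit assembly, rose by 0.84 ± 0.10, Mtg2, an assembly GTPase, by 0.62 ± 0.08, and Mtfmt, which formylates the initiator tRNA, by 0.72 ± 0.10 (log2, SE). Gfm2, which helps recycle the ribosome, changed by -0.47 ± 0.11. Of 19 mitochondrial aminoacyl-tRNA synthetase genes, 7 rose and 2 fell with Pb (median 0.17), Fars2 by 0.71 ± 0.08 and Iars2 by -0.33 ± 0.07.

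Genes of mitochondrial transcription and its regulators were mixed, with 7 of 16 higher and 4 lower with Pb (median log2 fold change 0.06). Across all genes tested, 24.5% were called higher and 29.2% lower with Pb. Slirp, an RNA-binding protein of mitochondria, rose by 1.57 ± 0.18. Ppargc1a, a coactivator of mitochondrial biogenesis, had a log2 fold change of -1.70 ± 0.23 (SE, adjusted p = 4.31e-08), and Gabpa, the DNA-binding subunit of GABP, changed by -0.79 ± 0.17. Of 13 protein genes of the mitochondrial genome, the templates of this ribosome, 10 rose with Pb, 6 with Co, 1 with Al and 1 with DU, where 1 fell, and 0 were called with W. The share of all genes called higher was 13.6% with Co, 12.8% with Al, 7.89% with DU and 1.42% with W, and 7.39% were lower with DU. The median log2 fold change of the 13 genes was 0.40 with Pb, 0.36 with Co, 0.21 with W, 0.004 with Al and -0.11 with DU. ND3 rose by 1.85 ± 0.20 with Pb (log2, SE), far above that median.

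**Figure D4:**
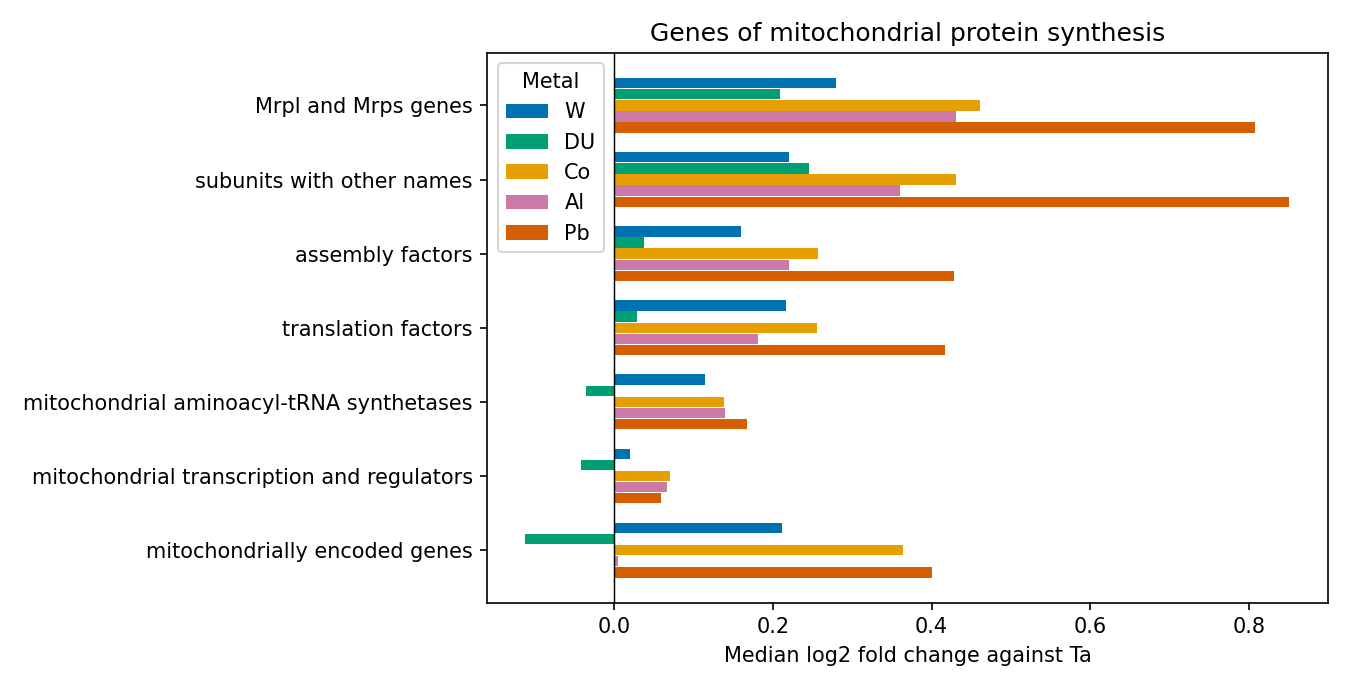
Median log2 fold change against Ta (bars, from 0) of the 75 genes and of 6 other gene lists, by metal. With Pb the medians were 0.81 for the 75 genes, 0.85 for subunits with other names, and 0.43 and 0.42 for assembly and translation factors. They were 0.17 and 0.06 for synthetases and regulators and 0.40 for mitochondrially encoded genes.

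The balance between genes of small and very large proteins also differed between groups. It was computed for each library by subtracting the mean log2 CPM of 36 very large protein genes from that of 73 genes of the cytosolic ribosome. It was 1.37 ± 0.30 with Ta, 1.78 ± 0.26 with W, 2.16 ± 0.33 with DU, 2.22 ± 0.41 with Co, 2.33 ± 0.44 with Al (SD, n = 8 each) and 3.12 ± 0.48 with Pb (SD, n = 7). All 7 Pb and all 8 DU libraries lay above every Ta library in this balance, as did 7 of 8 Al, 6 of 8 Co and 3 of 8 W libraries. The cytosolic genes had medians of 0.60 with DU and 0.61 with Al, with 69 of 73 higher in each, whereas the members' medians were 0.21 and 0.43. With Pb all 73 cytosolic genes rose and 28 of the 36 very large genes fell, with medians of 1.10 and -0.48. Of all genes tested, 7.89% were called higher with DU and 12.8% with Al, and with Pb 24.5% were higher and 29.2% lower. With the balance as a covariate, which itself differs between groups, members called numbered 1 with W, 6 with Co, 10 with Al, 22 with Pb and 7 with DU, all higher. That is 1.33%, 8.0%, 13.3%, 29.3% and 9.33% of the members, beside 0.0315%, 0.655%, 1.80%, 3.08% and 1.99% of all genes called higher in the same fit. In the same order, 30, 39, 33, 42 and 17 members had an unadjusted p below 0.05. Their median log2 fold changes were then 0.19, 0.24, 0.21, 0.34 and 0.06. The part of this balance in the results was not tested.

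**Figure D5:**
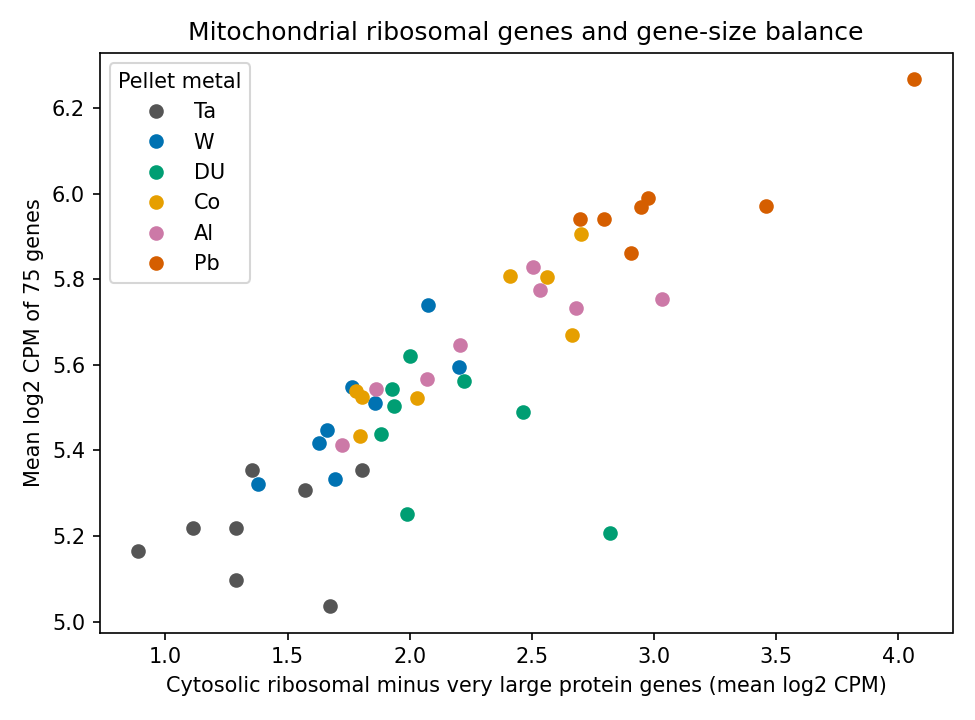
Mean log2 CPM of the 75 genes (vertical) against the balance of cytosolic ribosomal minus very large protein genes (horizontal, log2 CPM) in 47 libraries, coloured by metal. Pb libraries lie at the upper right, from 2.696 to 4.06 in balance, and Ta libraries at the lower left, from 0.889 to 1.81.

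Markers of kidney cell types moved as well. Of all genes tested, 24.5% were called higher and 29.2% lower with Pb, 12.8% and 12.4% with Al, and 13.6% and 12.2% with Co. These shares were 7.89% and 7.39% with DU and 1.42% and 0.366% with W. The summed CPM of 10 proximal tubule markers was 6218 to 8504 with Ta and 4026 to 5273 with Pb, without overlap, and 8 of the 10 were called lower with Pb and 4 with Al. All 6 podocyte and all 6 endothelial markers were lower with Pb, and 2 of 5 collecting duct markers were higher and 1 lower. With Pb, 5 of 6 fibroblast and pericyte, all 3 tested distal tubule and 2 of 6 macrophage markers were lower too. With Al, all 6 podocyte, 5 of 6 endothelial and 4 of 6 fibroblast and pericyte markers were lower. With Co this held for 2, 1 and 4 of the 6, and with W for 2 of the 6 fibroblast and pericyte markers alone among these 3 lists. With DU, 2 of 6 macrophage markers were higher and 1 of 5 collecting duct markers was lower. Of 4 adipocyte markers tested, 2 were higher with Pb, 2 with Co, 1 with Al and 1 with DU. Of 5 thick ascending limb markers, 1 was higher and 2 lower with Pb, 1 was higher with Al, and 1 was lower with Co and with DU. With Pb, 1 of 4 intercalated and 1 of 5 urothelium markers were higher, and with Co 1 of 6 T and NK markers was lower. Endothelial sums ran from 35.3 to 69.3 with Pb, 35.2 to 177 with Al, 58.1 to 253 with Co and 149 to 307 with DU. The distal tubule marker Pvalb was at or near 0 in every library (at most 0.194 CPM), and markers of macrophages, T and NK cells, adipocytes and urothelium reached 0 in some. DU replicate 6 stood apart, with a proximal tubule sum of 1260. Without DU replicates 5 and 6, 41 members were called with DU in place of 27. The part of cell make-up in the results was not tested beyond covariates of 2 marker lists, with which 2 members were called with W.

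Scaling bears on the size of these changes. Mean TMM factors were 1.08 with Ta and DU, 1.01 with Al, 0.990 with W, 0.951 with Co and 0.894 with Pb. With library totals alone, the median of all genes moved to -0.15 with W, -0.25 with Co, -0.13 with Al, -0.34 with Pb and 0.00 with DU, and the members' medians were 0.15, 0.26, 0.34, 0.54 and 0.22.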

How the data were processed

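Whole-kidney RNA of 47 rats was analysed. The authors deposited a table of unnormalized read counts by gene. Alignment used STAR 2.7.2a on mRatBN7.2, and counting used featureCounts (Subread 1.6.4), per the submitters' processing notes. Annotation, strand setting and treatment of reads with several matches are not given in the sources used here, so the 24 tested genes with a named copy or pseudogene in RefSeq are uncertain. Another 29 lines without a gene name were not used (at most 0.0558% of a library's counts).

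Genes kept by filterByExpr were fitted with edgeR 4.0.16 in R 4.3.3 over all 47 libraries with TMM factors, and tested by the two-sided quasi-likelihood F test with Benjamini-Hochberg adjustment over 15868 genes and a threshold of 0.05. The scripts were tested on simulated data. Of 66 genes given a simulated 4-fold change among 15868, 80.3% were recovered for W, 90.9% for Co, 89.4% for Al, 84.8% for Pb and 74.2% for DU. Among those above 2 CPM with a biological coefficient of variation below 0.6, recovery was 97.8% to 100%. A first criterion, 80% of all such genes, failed for DU and was replaced by a criterion on these well-measured genes after that failure was seen. The largest log2 fold change of the family was 1.65, which is below 4-fold. These rates therefore do not say how often changes of the family's size were recovered. Log2 CPM used a prior count of 2. Depth sets counting error only. Nothing says that replicates are more than separate samples of a group, so the tests set group differences against the spread between samples. No 2 libraries of a group agreed within sampling noise (lowest chi-square per degree of freedom 16.3 over 161 pairs).

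The members, lists and tests were chosen with earlier results of these data known. Named were the 6 members with the smallest p per comparison with Ta, members called lower, members called in all 5 or none, a panel of 12 genes, and up to 4 genes per other list by p with Pb. Genes by CPM per length were to be named too, but gene lengths were not used here and levels are not compared between genes. Alternatives were DESeq2 1.42.0, RLE factors, no filter, a replicate block, 2 kinds of covariate, fits of the groups compared only and fits without each library. Chosen after seeing the data were library totals without scaling factors, members without named copies, and leaving out DU replicates 5 and 6, Ta replicates 4 and 6 or W replicates 5 to 8.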

Additional observations from a re-analysis of the deposited data

Results flagged for a closer look

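A few libraries lay far from the rest of their group, with a gap to the nearest library that was large for the group's whole range (Dixon's 95% critical value). Chance flags about 1 in 20 groups, and 39 of 450 sets of a gene and a group (8.67%) met the rule, of which those of the genes named in the text are given here. Over all 75 genes, Pb replicate 4 was flagged in 13, W replicate 5 in 8 and DU replicate 6 in 5. Pb replicate 4 was the highest Pb library in the mean log2 CPM of the 75 genes (6.27) and in Mrps21 (114 CPM), Mrpl14 (75.2 CPM), Mrps18c (79.2 CPM), Mrps24 (90.4 CPM), Mrps16 (119.7 CPM), Mrpl23 (86.6 CPM) and Mrpl47 (37.3 CPM). The same library had the highest balance of cytosolic ribosomal over very large protein genes, at 4.06. DU replicate 6 was low in Mrps21 (34.3 CPM) and DU replicate 1 high in Mrpl44 (53.7 CPM). Co replicate 8 was high in Mrpl14 (41.3 CPM), and Ta replicate 6 low in Mrpl52 (50.2 CPM). W replicate 5 was high in Mrpl13 (63.0 CPM) and Mrpl58 (86.57 CPM), and W replicate 3 low in Mrps18b (52.5 CPM). Of the genes called in no comparison with Ta, Mrps27 was high in Co replicate 6 (41.3 CPM), Mrpl51 in DU replicate 3 (19.8 CPM) and Mrps10 in Ta replicate 7 (20.1 CPM).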

How the results depend on the processing

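Of the named calls, 1 changed sign: with the balance as covariate Mrpl47 with Pb went from 0.46 to -0.17 (log2). The W count (11) was 5 with no filter, 24 with DESeq2, 2 with the cell make-up covariates, 0 with library totals alone, 0 without Ta replicates 4 and 6, 0 without W replicates 5 to 8, and 7 of the 51 members without a named copy; without 1 library it ran from 0 to 25. With the balance as covariate, calls numbered 1 for W, 6 for Co, 10 for Al, 22 for Pb and 7 for DU against Ta, 5, 2, 0 and 38 for Pb against W, Co, Al and DU, and 34 in the joint test; the cause was not tested. With library totals alone, Co gave 43 and Pb against Al 24. Without DU replicates 5 and 6, DU gave 41. Without 1 library, Pb against Al ran from 35 to 56. With the replicate block the counts were 11, 66, 61, 71 and 27 against Ta, 66, 48, 55 and 72 for Pb against W, Co, Al and DU, and 70 jointly. Correlations between same-numbered libraries of different groups had a median r of 0.0116 over 115 pairs, from -0.353 to 0.360. This median cannot show whether low and high replicate numbers differ. They did in the endothelial sums of W and Co and in the proximal tubule sums of W and Al. Other settings kept each count within 1.5 times. Leaving out 1 library ended 2 of 25 named calls with Co (Mrpl14 and Mrps6, both without Co replicate 8), 3 of 19 with DU (Mrpl12 without DU replicate 1, Mrpl58 without DU replicate 2, Mrps6 without DU replicate 6), 1 of 27 with Pb (Mrps2), 0 of 23 with Al and all 10 with W, each without W replicate 5. Depth did not limit the members, which other than Mrps21l had counts in every library.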
